A study of Mus musculus with 4 samples.

Results

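Serine synthesis and one-carbon enzymes make the amino acid serine from a glycolytic intermediate and pass its side-chain carbon to folate. The group held 9 genes, Phgdh, Psat1, Psph, Shmt1, Shmt2, Mthfd1, Mthfd2, Mthfd1l and Tyms, chosen by name. Every probe set whose only gene symbol in the platform annotation is one of these 9 was used. This gave 25 of the 45037 probe sets tested, from 9 of 18193 genes. Left out of the group were 3 probe sets that list a member together with another gene. RNA came from CD4+/8+ cells, called double-positive (DP), an immature stage of T-cell development with both co-receptors on the surface, and was hybridised to 4 Affymetrix Mouse 430 2.0 arrays. The 2 normal arrays held DP cells of wild-type thymus. The 2 tumour arrays held DP cells of a peripheral thymoma over-expressing Notch1-IC, the active intracellular part of the Notch1 receptor, with the genotype label T-ALL (T-cell acute lymphoblastic leukaemia). Both groups carry the label WT C57/BLACK6 for genetic background, and age is not given. The labels name neither the promoter driving Notch1-IC nor the number of animals or tumours. The labels do not say whether replicate arrays stem from different animals, so p-values here reflect the spread among these arrays alone, and that spread may be technical. The sample type label calls all 4 samples tumour cells, against the titles, source names and genotypes of the normal pair, and the titles were followed here.

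In this pathway Phgdh, Psat1 and Psph act in turn to convert 3-phosphoglycerate into serine. Shmt1 in the cytosol and Shmt2 in mitochondria split serine into glycine and a one-carbon unit bound to tetrahydrofolate. In mitochondria Mthfd2 oxidises the folate-bound unit and Mthfd1l releases it as formate, which passes to the cytosol, where Mthfd1 binds it to folate again. It is then spent on purines, on methionine, and, through Tyms, on thymidylate for DNA. The pathway is known for its activity in dividing lymphocytes and in many tumours, and MYC and ATF4 are known to promote transcription of several of its genes.

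The tumour arrays carried more signal for 7 of the 9 genes, and for Psph and Tyms no difference passed the test. By gene, 16.3% of all 18193 were higher and 11.7% lower. The probe sets counted for Tyms were dim, and a brighter one shared with its pseudogene Tyms-ps was lower (limma adjusted p = 0.00034). Shmt1, Mthfd1 and Shmt2 had the largest differences on their most intense probe sets, 6.08-fold, 5.27-fold and 5.11-fold. Psat1 followed at 3.40-fold, Phgdh at 3.08-fold, Mthfd2 at 2.84-fold and Mthfd1l at 2.28-fold. Across their probe sets, log2 differences ran from 0.67 to 2.61 for Shmt1 and from 0.75 to 2.35 for Shmt2. Those of Mthfd1 ran from 2.11 to 2.40. The order of the genes thus depends on the probe set chosen. By probe set, 18 of 25 rose, 0 fell and 7 did not pass limma's test at an adjusted p below 0.05 (trend and robust prior, adjusted over 45037 probe sets). Over all probe sets the test called 22.8%, with 11.3% higher and 11.5% lower in the tumour arrays. Among the 10772 more intense probe sets, those whose mean log2 intensity reached 7, 28.8% were higher. The median log2 difference was 1.28 over the 25 probe sets and -0.025 over all probe sets. For 20 of the 25 both tumour arrays lay above both normal arrays, as they did for 27.6% of all probe sets. For 1 both lay below, as for 29.1% of all.

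Both the choice of scale and the choice of variance prior bear on these counts. The bacterial BioB, BioC and BioD controls, which are added in fixed amounts at hybridisation, lay 0.60 higher (log2) on the tumour arrays. Scaling the arrays to them moved the median of all probe sets to -0.63, and 15 member probe sets then rose and 1, that of Psph, fell. With that scaling 4.61% of all probe sets were higher and 25.6% lower (2074 and 11539, against 5084 and 5189). With limma's default prior, which gives dim and intense probe sets one common prior variance, 0 of 25 member probe sets and 0 of all probe sets passed. Of the 25, 19 were higher with an unadjusted p below 0.05, as were 12.2% of all probe sets. With 1 probe set per gene and the same default prior, 5 of the 9 genes rose, and over all 18193 genes 759 rose and 401 fell.

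**Figure D1:**
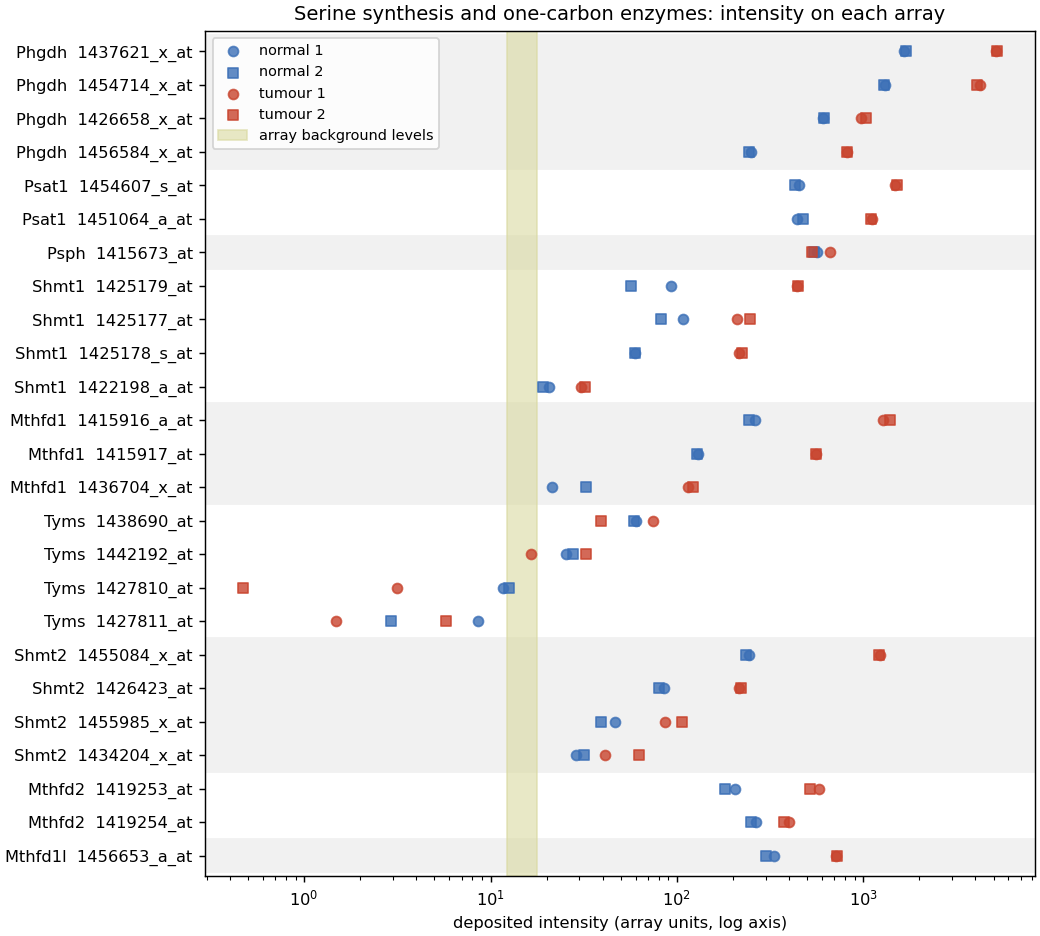
Deposited intensity of the 25 probe sets on each of the 4 arrays (log axis), ordered by gene, with circles for replicate 1 and squares for replicate 2; the yellow band spans the background levels of the arrays, 12.28 to 17.8. The tumour points lie to the right of the normal points for 20 probe sets, and 3 of the 4 Tyms probe sets reach into or below the band.

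As measures of the whole series, each array was given a background level, the maximum over 27 unspiked bacterial control probe sets. It ranged from 12.28 to 17.8, and 51.0% to 59.0% of probe sets lay above it. Over those 10772 more intense probe sets, arrays correlated at r = 0.990 within the normal group, 0.991 within the tumour group and 0.819 to 0.826 between groups, across probe sets, which are not independent replicates. Notch1 rose from 1104 and 1098 on the normal arrays to 7155 and 6417 on the tumour arrays (log2 difference 2.62 ± 0.073, SE, adjusted p = 4.48e-08), and whether the probe set detects the introduced sequence is not known. Of 13 measured markers of DP cells and the T-cell receptor complex, all were above background on all 4 arrays. Of these 11 fell and 1, Ptcra, rose (1.72 ± 0.083), beside 11.7% lower and 16.3% higher over all genes. Cd8a, which encodes CD8 alpha, fell by 2.75 ± 0.066 and Cd4 fell by 2.09 ± 0.11 (adjusted p = 2.08e-08 and 1.40e-06). The 3'/5' ratio of control probe sets, a measure of how complete the labelled RNA is, was 1.28 and 1.20 for beta-actin on the normal arrays and 2.46 and 2.53 on the tumour arrays. For Gapdh it was 0.912 and 0.897 against 1.84 and 1.85. RNA quality and site of origin, thymus or peripheral tumour, thus moved with the groups, and their part in the results was not tested.

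The serine synthesis enzymes differed among themselves, with Phgdh and Psat1 higher in the tumour cells and Psph not. Of their 7 probe sets 6 rose, and the median log2 difference was 1.62. Phgdh, the dehydrogenase that commits 3-phosphoglycerate to serine, had 4 probe sets. The most intense read 1659 and 1703 on the normal arrays and 5130 and 5211 on the tumour arrays. This was a log2 difference of 1.62 ± 0.063 (SE, n = 2 arrays per group, adjusted p = 2.90e-07), and the gap between groups was far wider than that between replicates. Another read 1306 and 1287 against 4233 and 4095 and rose by 1.68 ± 0.067, and the dimmest rose by 1.72 ± 0.11 from 250.4 and 242.3 to 813.7 and 814.5. The remaining one, 1426658_x_at, rose less, by 0.71 ± 0.091 (adjusted p = 0.000339), from 606.5 and 613.2 to 969.2 and 1028. With spike scaling its difference was 0.11 and did not pass (adjusted p = 0.445). All 4 Phgdh probe sets are of the _x_at class, some of whose probes may also bind other transcripts, and the annotation places Phgdh beside predicted genes on other probe sets, so the split of this signal between Phgdh and near-identical copies is uncertain.

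Psat1, the aminotransferase that follows Phgdh, rose on both of its probe sets. The more intense read 453.0 and 431.8 on the normal arrays and 1479 and 1526 on the tumour arrays, a log2 difference of 1.76 ± 0.090 (adjusted p = 1.10e-06). Its other probe set rose by 1.28 ± 0.094, from 442.2 and 474.5 to 1112 and 1106. Both tumour arrays stood above both normal arrays on each. Psph, the phosphatase that releases serine in the last step, did not pass. Its only probe set read 565.5 and 546.9 on the normal arrays and 662.1 and 533.6 on the tumour arrays, so the groups overlapped. The log2 difference was 0.096 ± 0.12 (adjusted p = 0.665), with a 95% interval from -0.18 to 0.37. Spike scaling gave -0.51 and a call for lower (adjusted p = 0.00864). With that scaling the median of all probe sets was -0.63 and 25.6% were lower.

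On the most intense probe set of each gene, the largest rises were those of the cytosolic enzymes Shmt1 and Mthfd1. The cytosolic enzymes also include Tyms, which did not pass on any probe set. Across their 11 probe sets 6 rose, none of them from Tyms, and the median log2 difference was 1.28. Shmt1, cytosolic serine hydroxymethyltransferase, read 93.33 and 56.48 on the normal arrays and 439.6 and 443.9 on the tumour arrays on its most intense probe set. That was a log2 difference of 2.61 ± 0.22 (adjusted p = 2.53e-05), which ranked within the highest 3.75% of all probe sets. On 1425178_s_at Shmt1 rose by 1.87 ± 0.18, from 59.93 and 59.47 to 214.3 and 222.3. On 1425177_at it rose by 1.28 ± 0.19, from 107.7 and 81.92 to 208.9 and 247.8 (adjusted p = 0.000932). The dimmest, 1422198_a_at, lay just above background at 20.57 and 19.12 against 30.73 and 32.18, where the log2 difference of 0.67 ± 0.41 did not pass (adjusted p = 0.327). The groups did not overlap on any of these 4, but the size of the difference spanned 1.94 log2 units between them. The difference between probe sets was not tested.

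Mthfd1, the cytosolic enzyme that joins 3 folate reactions in one protein, gave the most even picture. Its most intense probe set read 264.1 and 243.1 on the normal arrays and 1282 and 1391 on the tumour arrays, a log2 difference of 2.40 ± 0.10 (adjusted p = 4.77e-07). On 1415917_at it rose by 2.11 ± 0.12, from 130.4 and 128.7 to 559.8 and 560.0, and on 1436704_x_at by 2.16 ± 0.29, from 21.28 and 32.71 to 114.5 and 121.4. The 3 differences lay within 0.29 log2 units of each other. With spike scaling they were 1.80, 1.51 and 1.56, and all passed.

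Tyms, thymidylate synthase, uses a folate-bound carbon to make the DNA precursor dTMP. None of its 4 probe sets passed the test, and 3 of them touched or lay under background. The most intense read 60.18 and 58.73 on the normal arrays and 74.53 and 39.07 on the tumour arrays, so the tumour replicates lay on either side of the normal ones. Its log2 difference was -0.14 ± 0.33 (adjusted p = 0.835), with a 95% interval from -0.89 to 0.61. The second read 25.57 and 27.7 against 16.4 and 32.6. The third, 1427810_at, read 11.73 and 12.5 on the normal arrays and 3.15 and 0.47 on the tumour arrays, where only normal replicate 2 was above background and no fold is given. The dimmest, at 8.58 and 2.93 against 1.48 and 5.78, was below background on all 4 arrays. A further probe set is listed for both Tyms and its pseudogene Tyms-ps, was given to neither, and was lower on the tumour arrays (-0.79 ± 0.10, adjusted p = 0.00034).

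**Figure D2:**
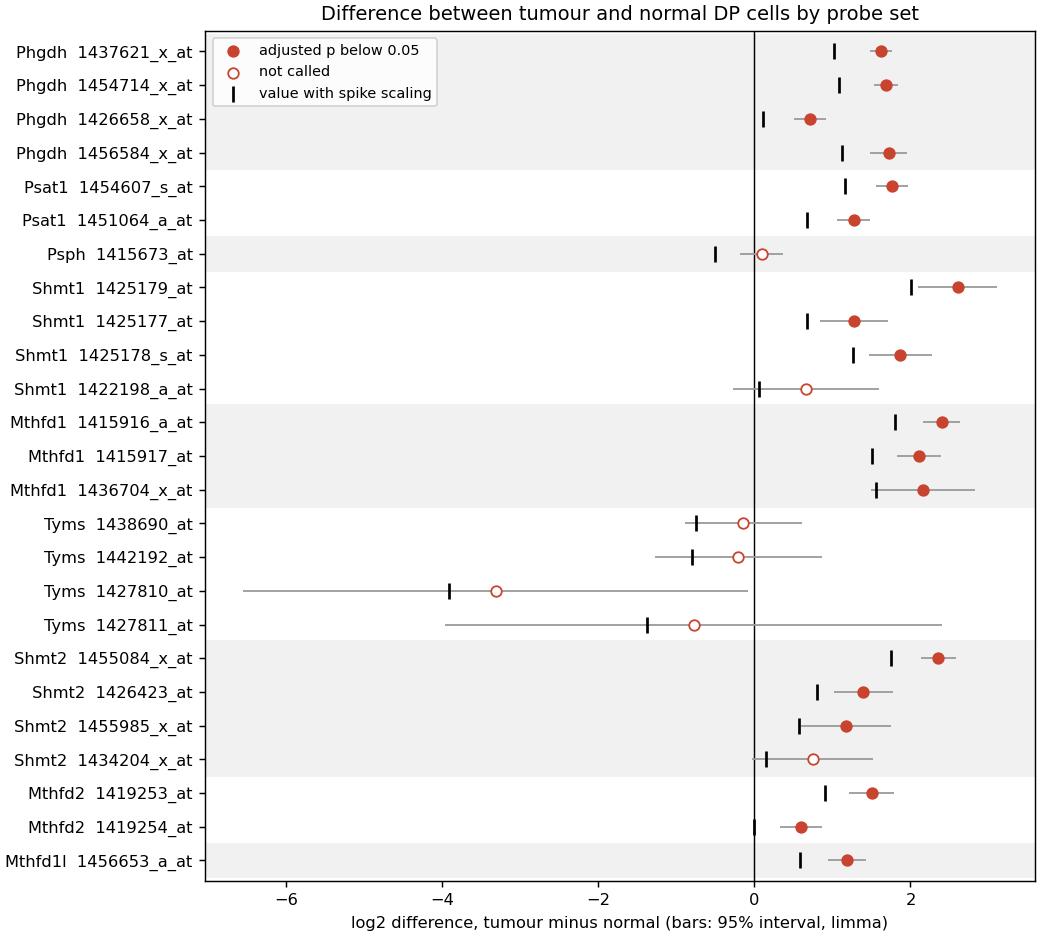
Log2 difference between tumour and normal arrays for each of the 25 probe sets, with limma's 95% interval; filled points passed at an adjusted p below 0.05 and black ticks give the value with spike scaling. The filled points number 18 and all lie above 0, while the ticks fall 0.60 lower, which puts those of Psph and of Mthfd2 1419254_at below 0.

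In the mitochondrial branch all 3 genes rose, on 6 of 7 probe sets, with a median log2 difference of 1.19. Shmt2, mitochondrial serine hydroxymethyltransferase, read 242.7 and 235.4 on the normal arrays and 1223 and 1221 on the tumour arrays on its most intense probe set. The log2 difference was 2.35 ± 0.099 (adjusted p = 4.34e-07), the largest estimate of the branch. This probe set is of the _x_at class. The only one without a class suffix, 1426423_at, rose by 1.40 ± 0.17, from 85.52 and 80.1 to 215.4 and 220.9 (adjusted p = 0.000213), and the 95% intervals of the pair, 2.13 to 2.58 and 1.02 to 1.77, did not overlap. On 1455985_x_at Shmt2 rose by 1.17 ± 0.25, a call that ended when normal replicate 2 was left out (adjusted p = 0.0657), when tumour replicate 2 was (0.0673) and with spike scaling (0.133). The dimmest, 1434204_x_at, read 28.63 and 31.88 against 41.13 and 62.47 and did not pass (0.75 ± 0.34, adjusted p = 0.172).

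Mthfd2, a mitochondrial dehydrogenase and cyclohydrolase known from embryonic and proliferating cells, rose on both probe sets but unequally. The intensities were 204.5 and 181.7 on the normal arrays and 576.5 and 519.0 on the tumour arrays for 1419253_at, a log2 difference of 1.50 ± 0.13 (adjusted p = 2.42e-05). For 1419254_at they were 265.8 and 248.7 against 400.4 and 377.8, a difference of 0.60 ± 0.12 (adjusted p = 0.00538) that was -0.0041 with spike scaling (adjusted p = 0.986) and did not pass without tumour replicate 1 (adjusted p = 0.0572). Mthfd1l, the mitochondrial enzyme that releases formate, has 1 probe set. It read 331.6 and 301.7 on the normal arrays and 714.5 and 726.5 on the tumour arrays, a rise of 1.19 ± 0.11 (adjusted p = 3.64e-05). Both compartments thus held genes that rose, and no test set one branch against the other.

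**Figure D3:**
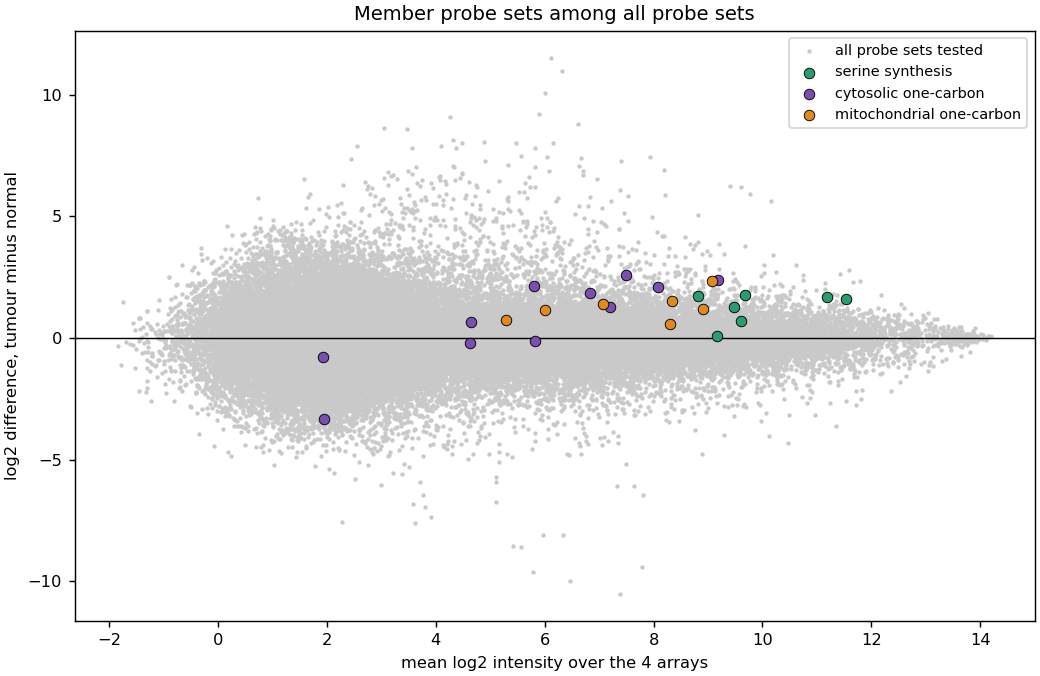
Log2 difference against mean log2 intensity for all 45037 probe sets (grey) and the 25 member probe sets (coloured by branch). The scatter widens at low intensity, the 18 called members all stand above 0, and the 2 dimmest members, below a mean log2 intensity of 2, are Tyms probe sets.

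Sequence upstream of 5 of the 9 members is shown, from genes that rose and from Tyms, which did not pass on its dim probe sets. Not printed are Psph, which also did not pass, and Mthfd1, Mthfd2 and Mthfd1l, which rose. The brighter probe set that Tyms shares with Tyms-ps was lower on the tumour arrays. RefSeq windows (GRCm38.p6) of 300 bases, 250 before and 50 after a transcript start, were found for all 9 genes, with 10 windows in all. The 120 bases before the start are printed 5′ to 3′ on the gene's strand, with matches to CCAAT, to the E-box CACGTG bound by MYC and to the ATF4 element TGATGNAA in capitals.
Phgdh (chr3:98339970-98340089, minus strand): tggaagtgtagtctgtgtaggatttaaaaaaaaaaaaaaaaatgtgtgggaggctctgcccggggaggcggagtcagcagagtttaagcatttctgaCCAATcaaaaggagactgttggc
Psat1 (chr19:15925060-15925179, minus strand): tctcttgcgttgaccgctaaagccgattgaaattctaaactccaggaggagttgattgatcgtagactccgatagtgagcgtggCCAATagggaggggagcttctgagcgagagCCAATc
Shmt1 (chr11:60811266-60811385, minus strand): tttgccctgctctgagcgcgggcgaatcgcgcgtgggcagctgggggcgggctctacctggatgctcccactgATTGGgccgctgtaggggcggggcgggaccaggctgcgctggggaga
Shmt2 (chr10:127522445-127522564, minus strand): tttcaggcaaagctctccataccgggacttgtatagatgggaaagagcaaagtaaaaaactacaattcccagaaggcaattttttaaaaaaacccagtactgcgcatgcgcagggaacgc
Tyms (chr5:30073626-30073745, minus strand): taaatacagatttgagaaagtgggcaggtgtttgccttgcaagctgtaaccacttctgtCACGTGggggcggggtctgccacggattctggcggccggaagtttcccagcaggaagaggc

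Matches were sought on both strands. The E-box was found in 1 of the 10 windows, that of Tyms, 61 bases before the start, and in 7.15% of all 32851 RefSeq windows. TGATGNAA was in 0 of the 10 and in 3.97% of all. CCAAT, a motif added after the sequences had been seen, was in 6 of the 10 windows, 1 each of Phgdh, Psat1, Psph, Shmt1, Mthfd1 and Mthfd2, and in 37.4% of all windows. Psat1 has 2 windows, and the one printed holds CCAAT while the other does not. Psph, which did not pass, holds CCAAT, as do genes that rose. Shmt2 and Mthfd1l, which rose, and Tyms hold none. Whether any of these motifs bears on the differences was not tested. The absence of letters here concerns only this window.

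Other genes of folate metabolism mostly did not pass the test. Of 17 measured, 3 rose, 1 fell and 13 did not pass, and their median log2 difference was 0.39, beside 0.088 over all 18193 genes. By gene, 28% of the 18193 were called, 16.3% higher and 11.7% lower. Atic, the last enzyme of purine synthesis and a user of formyl-folate, rose by 1.76 ± 0.081, from 689.2 and 744.6 to 2427 and 2429 (adjusted p = 6.49e-07). Slc19a1, the reduced folate carrier, rose by 1.02 ± 0.17 and Fpgs, which retains folate in the cell by adding glutamates, by 0.76 ± 0.19 (adjusted p = 0.00173 and 0.0157). Ggh, which removes those glutamates, fell by 2.85 ± 0.22, from 247.4 and 284.3 to 42.61 and 31.78 (adjusted p = 1.31e-05). Spike scaling left 1 of these 3 rises, that of Atic, and gave 2 genes of the list that fell.

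Among 15 measured genes of the glycine cleavage system and of serine use and transport, 3 rose, 0 fell and 12 did not pass. Over all genes 16.3% were higher and 11.7% lower. The median of the list was 0.43, beside 0.088 over all genes. With spike scaling 2 rose and 3 fell, where 4.61% of all probe sets were higher and 25.6% lower. Gcsh, the lipoyl carrier of glycine cleavage, rose by 1.83 ± 0.11, from 246.8 and 271.6 to 963.7 and 877.5 (adjusted p = 3.26e-06). Sfxn1, the carrier that brings serine into mitochondria, rose by 1.29 ± 0.094, from 508.5 and 556.5 to 1325 and 1271 (adjusted p = 9.08e-06). Dld, shared with other dehydrogenase complexes, rose by 0.49 ± 0.13 and had a difference of -0.11 with spike scaling. Gldc, the decarboxylase that starts glycine cleavage, was below background on all 4 arrays, at 9.58 and 6.65 against 3.87 and 6.15.

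**Figure D4:**
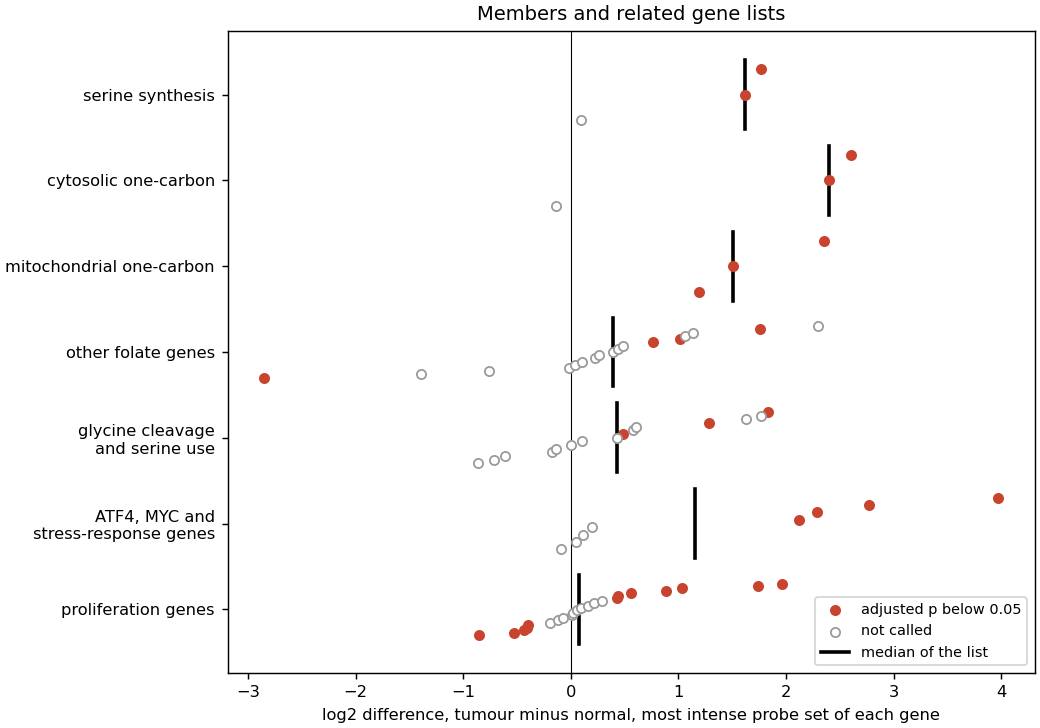
Log2 difference of each measured gene, on its most intense probe set, for the 3 branches of the pathway and 4 related lists; red points passed at an adjusted p below 0.05, and black bars are list medians. The branch medians are 1.62, 2.40 and 1.50, and those of the other lists 0.39 (other folate genes), 0.43 (glycine cleavage and serine use), 1.16 (regulators) and 0.075 (proliferation).

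The known regulators of the pathway and their targets gave a mixed picture. Of 8, 4 rose, 0 fell and 4 did not pass, beside 16.3% higher and 11.7% lower over all genes. Their median was 1.16, beside 0.088 over all genes. With spike scaling 4 rose and 2 fell. Myc rose by 2.77 ± 0.12, from 146.0 and 159.3 to 1097 and 993 (adjusted p = 4.38e-07). Atf4 read 936.5 and 948.6 against 1106 and 1053, a log2 difference of 0.20 ± 0.085 that did not pass (adjusted p = 0.146) and was -0.41 with spike scaling, where it passed as lower (adjusted p = 0.00485). Asns, asparagine synthetase and a target of ATF4, read 3.3 and 13.7 on the normal arrays, the first below background, and 105.7 and 105.0 on the tumour arrays (adjusted p = 0.00116). The ATF4-related factors Atf5 and Cebpb rose by 2.12 ± 0.15 and 2.29 ± 0.15. Trib3 and Chac1, also targets of ATF4, did not pass. Trib3 read 15.1 and 12.08 against 14.18 and 13.68, at the level of background, and Chac1 had a log2 difference of -0.093 ± 0.50. Nfe2l2, which encodes the factor NRF2, had 0.11 ± 0.11, or -0.49 with spike scaling, where it passed as lower. With that scaling 25.6% of all probe sets were lower. The values of Atf4 and Nfe2l2 then lay above the median of all probe sets, -0.63.

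Proliferation genes moved in both directions. Of 22 measured, 7 rose, 5 fell and 10 did not pass, beside 16.3% higher and 11.7% lower over all genes, and their median was 0.075. Mki67, a marker of cycling cells, rose by 1.97 ± 0.086, Mcm2 of the replicative helicase by 1.74 ± 0.16, E2f1 by 1.04 ± 0.19 and Mcm3 by 0.89 ± 0.081. The 5 that fell were Top2a, Pcna, Cdk1, Aurka and Bub1, by 0.40 to 0.85. With spike scaling 3 rose and 14 fell, so the split of this list depends on the scale. Its part in the members' differences was not tested.

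Most macrophage and neutrophil markers were higher on the tumour arrays, and lists of other cell types varied. Over all genes 16.3% were higher and 11.7% lower. Of 13 macrophage markers 9 rose, and their summed intensity went from 133 and 177 on the normal arrays to 2233 and 2397 on the tumour arrays. Cd163 read 164.7 and 163.5 and C1qc 143.8 and 193.0 on the tumour arrays. These and C1qa, Fcgr3, Mrc1 and Cd14, 6 of the 13, did not exceed background on either normal array. Cd14 did not pass (limma adjusted p = 0.870), and the sizes of the changes of the others are not ordered. Of 11 neutrophil markers 8 rose, among them S100a8, from 73.25 and 100.03 to 1100 and 1164, and Ltf, which read 28.52 and 55.75 on the tumour arrays and did not exceed background on either normal array. The neutrophil list had sums of 204 and 267 against 2200 and 2239. Of 9 dendritic cell markers 4 rose, led by H2-Aa and Itgax, of 8 NK and cytotoxic genes 5 rose, led by Gzmb and Gzma, and of 5 erythroid markers 1 rose, Alas2. B-cell markers gave 1 higher (Cd22) and 1 lower (Cd79b) of 7. Stromal and epithelial markers gave 3 higher (Pdgfrb, Krt18 and Krt5) and 2 lower (Epcam and Pecam1) of 12. The other 7 did not pass, among them Pdgfra, Col1a1, Col1a2 and Col3a1. The part of other cells' RNA in the members' signal was not tested. In bulk RNA more cells with a transcript and more transcript per cell cannot be told apart.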

How the data were processed

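Per the labels' protocols, biotin-labelled cRNA was made from the total RNA of DP cells with a 3' IVT kit. The authors deposited 1 linear intensity per probe set and array for 45101 probe sets, and the submitters' processing notes name RMA without a version. The lowest value of an array was 0.08 to 0.17, and RMA rarely gives linear values under 1. The probe summary method is thus not settled, and folds of dim probe sets are uncertain. The arrays share nearly one distribution, so a shift common to most genes is hidden. After leaving out 64 controls, log2 intensities were fitted with limma 3.58.1 in R 4.3.3 (lmFit, eBayes with trend and robust prior, tumour minus normal, 2 arrays each), with Benjamini-Hochberg adjustment over 45037 probe sets at 0.05. The prior followed intensity because the median replicate SD was 1.31 in the dimmest 25% of probe sets and 0.10 in the brightest 25%. Of the tested probe sets 34945 had 1 symbol, 932 several and 9160 none. Lists were counted by each gene's most intense probe set. The fit was tested on simulated data. The members, lists, prior and tests were chosen with earlier results of these data known.

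The plan named all member probe sets, up to 6 called genes per folate or glycine list and all regulators. It also named up to 4 called proliferation and DP genes with Cd4, Cd8a and Notch1, and up to 2 per other cell type. Named beyond it were Gldc, Ptcra, the 5 proliferation genes that fell, macrophage markers at background on the normal arrays, and further stromal and epithelial markers. Alternatives covered scaling (medians, quantiles, 14 spike controls), an offset of 16, filters on dim probe sets, thresholds, a 2-fold minimum, the default prior, 1 probe set or the mean per gene, probe set classes, the replicate number as a block and each array left out. The number of arrays limits the precision.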

Additional observations from a re-analysis of the deposited data

How the results depend on the processing

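For the 25 member probe sets, median subtraction, renewed quantile normalization, an offset of 16 before log2, filters on dim probe sets and a threshold of 0.01 kept 18 higher and 0 lower. The replicate block also gave 18, with 6125 higher over all probe sets, and it ended no member's call. Deviations of same-numbered arrays from their group means correlated at r = 0.25, but the labels tie the numbers to no animal or day. Leaving out each array in turn gave 17 to 18 member probe sets higher and 0 lower each time, and over all probe sets 3325 to 3983 higher and 3184 to 4386 lower. The higher count fell most without tumour replicate 1 (3336) or 2 (3325), and the lower count without normal replicate 1 (3184) or 2 (3309). The lone array of a group is then assumed to vary like the other group. The default prior gave 0 member probe sets, and 0 higher and 0 lower over all. With 1 probe set per gene, 7 of 9 rose with the trend and robust prior (3156 genes higher and 2251 lower over all) and 5 with the default prior (759 and 401). In that default fit Shmt1 and Mthfd1l missed the threshold (adjusted p = 0.0532 and 0.05045). Without the _x_at, _s_at and _a_at classes 6 member probe sets were called, from Shmt1, Mthfd1, Shmt2 and Mthfd2, with 3267 higher over all, since Phgdh, Psat1 and Mthfd1l have no other probe set. A 2-fold minimum left 16 member probe sets, and 2666 higher and 2821 lower over all. Spike scaling gave 15 member probe sets higher and 1 lower (2074 and 11539 over all) and turned the sign of Psph to -0.51 and of Mthfd2 1419254_at to -0.0041. With the mean of probe sets, 7 of 9 genes rose, at 1.05 for Mthfd2, 1.42 for Shmt2 and 1.60 for Shmt1. Signal near background limits 3 of the 4 Tyms probe sets, and 2 arrays per group limit every comparison.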

Other observations

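Besides the 25 probe sets, 3 more list a member together with another gene and were given to neither. The probe set shared by Tyms and its pseudogene Tyms-ps was well above background and lower on the tumour arrays, at 625.5 and 579.0 against 1103 and 976.4 (log2 difference -0.79 ± 0.10, limma adjusted p = 0.00034, and -1.39 with spike scaling). Both tumour arrays lay below both normal arrays there. The probe set shared by Phgdh and Gm6756 rose by 1.62 ± 0.10, from 348.0 and 310.8 to 1025 and 999.5. The one shared by Phgdh and Gm8096 rose by 0.62 ± 0.095, from 562.1 and 530.4 to 839.5 and 842.0, and was at 0.022 with spike scaling. It carries the same source accession as Phgdh 1426658_x_at, the member probe set of that gene with the smallest rise.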
